A study of Schizosaccharomyces pombe with 8 samples.

Results

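Glycolysis and fermentation in fission yeast (Schizosaccharomyces pombe) were followed through 8 mRNAs of 9 that were named by symbol: fba1, tpi1, tdh1, pgk1, gpm1, eno101, pyk1 and adh1. They are 8 of the 527 genes listed in the deposited count table, and gpd3 was not analysed here. Cells without the La-related protein Slr1p (slr1-, a knockout whose construction the labels do not describe) were compared with wild-type cells (WT, strain yAS99). All cells grew in YES medium, a rich yeast extract medium, at 32 °C, and all were treated with 100 µg/mL cycloheximide, a drug that stalls ribosomes on mRNA. Total RNA and polysome RNA, the RNA found with several ribosomes, were sequenced from each strain. The 4 groups were slr1- total RNA, WT total RNA, slr1- polysome RNA and WT polysome RNA, with 2 libraries each that the labels call biological replicates. The transcript of slr1 itself was not analysed here, and the direction of each comparison rests on the labels.

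Glycolysis splits a sugar bisphosphate into triose phosphates, oxidises them and passes their phosphate to ADP, ending in pyruvate. In yeast growing on glucose much of the pyruvate is fermented, which turns acetaldehyde into ethanol and renews the NAD+ that glycolysis consumes. The enzymes are among the most abundant proteins of a yeast cell. Slr1p belongs to the LARP1 family, and LARP1 in animals binds mRNAs that start with a pyrimidine tract, the 5′TOP mRNAs of the translation machinery.

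The start regions of the 8 genes are shown because LARP1 is known for recognising the first bases of an mRNA, and because a shared core promoter element was found there. Each window below holds 60 bases before the annotated transcript start and 20 bases from it, taken by gene identifier from the RefSeq assembly ASM294v3. The last capitals mark the first 10 bases of the annotated transcript, and the capitals before them mark TATAAA or TATATA on either strand.
fba1: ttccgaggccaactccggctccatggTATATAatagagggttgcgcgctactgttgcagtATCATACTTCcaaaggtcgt
tpi1: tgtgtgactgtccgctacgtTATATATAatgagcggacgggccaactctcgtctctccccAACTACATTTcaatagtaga
tdh1: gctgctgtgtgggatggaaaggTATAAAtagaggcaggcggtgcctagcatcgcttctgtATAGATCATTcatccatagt
pgk1: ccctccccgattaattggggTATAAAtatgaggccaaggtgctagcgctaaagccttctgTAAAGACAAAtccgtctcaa
gpm1: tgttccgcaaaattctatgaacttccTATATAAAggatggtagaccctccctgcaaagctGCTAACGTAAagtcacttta
eno101: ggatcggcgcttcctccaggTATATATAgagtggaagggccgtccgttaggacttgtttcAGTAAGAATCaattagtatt
pyk1: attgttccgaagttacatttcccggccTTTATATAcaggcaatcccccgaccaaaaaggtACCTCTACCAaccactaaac
adh1: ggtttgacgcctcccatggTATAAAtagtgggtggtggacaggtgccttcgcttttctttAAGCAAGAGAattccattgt
The windows are II:1688261-1688340 (plus strand) for fba1, III:939853-939932 (plus strand) for tpi1, II:2807535-2807614 (plus strand) for tdh1, II:4159442-4159521 (minus strand) for pgk1, I:5174635-5174714 (minus strand) for gpm1, II:2201136-2201215 (plus strand) for eno101, I:3846656-3846735 (minus strand) for pyk1 and III:1591232-1591311 (plus strand) for adh1. The start is that of the annotation and was not measured in these libraries.

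All 8 windows held TATAAA or TATATA in the 60 bases before the start, the usual letters of a TATA box, which binds the TATA-binding protein. The match began between 31 and 41 bases before the start. TATAAA was found in 5 genes and TATATA in 5, and both, overlapping, in pyk1 and gpm1. In pyk1 TATAAA lies on the opposite strand, and TATATA reads the same on both strands. The same windows of 5155 protein-coding genes held either of these letters in 17.4%, those of the 515 listed genes found in the reference in 21.6%, and those of 126 listed ribosomal protein genes in 3.17%. The first base of the transcript was C, as in a classical 5′TOP mRNA, in 0 of the 8 genes and in 2.37% of all protein-coding genes. C or T made up at least 8 of the first 10 bases in 0 of the 8 genes, in 2.38% of the ribosomal protein genes and in 5.92% of all genes. Between 1 (adh1) and 7 (fba1, pyk1) of the first 10 bases were C or T. No gene of the 8 has an intron in the annotation, against 49.5% of the listed genes with one. The annotated 5′ untranslated region is 133 bases long in pyk1 and 32 (tpi1) to 67 (adh1) bases in the other 7.

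Further motifs were searched on both strands of the 250 bases before the start. The HomolD box CAGTCACA, a core element of fission yeast ribosomal protein promoters, was found in tpi1 only, 58 bases before the start on the opposite strand, against 64.3% of the listed ribosomal protein genes and 2.6% of all genes. The cAMP response element TGACGT, known as a site of the stress factor Atf1, was found in pgk1 and fba1 and in 5.53% of all genes. The stress starvation response element CCCCTC was found in 0 of the 8 and in 1.69% of all genes. The letters TTCCGA, chosen after the sequences had been read and given here with no known role, were found in 5 of the 8 genes (fba1, tdh1, pgk1, gpm1 and pyk1) and in 5.86% of all genes. The windows of pgk1 and fba1, the members with the largest strain difference in total RNA and with that closest to 0, are shown in full, with TGACGT and TTCCGA in capitals on either strand. In fba1 the matches to TGACGT on the 2 strands overlap.
pgk1: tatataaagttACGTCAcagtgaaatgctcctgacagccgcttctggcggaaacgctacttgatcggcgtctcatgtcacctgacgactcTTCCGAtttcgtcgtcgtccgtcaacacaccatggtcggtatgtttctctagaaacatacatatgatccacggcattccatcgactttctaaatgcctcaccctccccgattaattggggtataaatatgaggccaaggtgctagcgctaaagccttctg
fba1: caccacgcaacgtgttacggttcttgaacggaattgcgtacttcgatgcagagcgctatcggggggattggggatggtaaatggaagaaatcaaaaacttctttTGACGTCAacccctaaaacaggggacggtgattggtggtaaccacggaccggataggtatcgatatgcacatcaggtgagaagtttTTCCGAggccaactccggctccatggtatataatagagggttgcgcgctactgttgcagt
The windows are II:4159462-4159711 (minus strand) for pgk1 and II:1688071-1688320 (plus strand) for fba1.

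The members are highly expressed. Their counts ran from 3145 to 25401 per library, against a median over all listed genes of 627 counts. Together they held 10.5% and 10.9% of the listed counts in slr1- total RNA, against 9.64% and 8.16% in WT total RNA. In polysome RNA the shares were 10.6% and 11.2% in slr1- and 11.0% and 10.5% in WT. These shares do not overlap between the strains in total RNA and overlap in polysome RNA. Totals over the listed genes were 984147 to 1110838 counts in slr1- total RNA, 792679 and 802359 in WT total RNA, 633394 and 666057 in slr1- polysome RNA and 550490 and 566241 in WT polysome RNA; they are not the depth of the libraries. Levels below are normalised counts, that is counts divided by the library's scale (trimmed mean of M-values, TMM). They are relative to the listed genes, so a change in the amount of RNA per cell cannot be told apart from a change in the other genes.

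Per kilobase of transcript, the phosphoglycerate mutase mRNA gpm1 was the most abundant of the 8 in all 4 groups, with 26442 ± 184 normalised counts per kilobase in slr1- total RNA and 19148 ± 989 in WT total RNA (mean ± SD, n = 2 libraries here and below). The aldolase mRNA fba1 was next, with 13394 ± 361 in slr1- and 13291 ± 1259 in WT total RNA. In slr1- total RNA the order went on with eno101 (11597 ± 965) and tpi1 (11100 ± 210 normalised counts per kilobase), which differ by less than their spread, then pgk1 (6167 ± 77.0), adh1 (5545 ± 339) and tdh1 (5169 ± 66.7), and last pyk1 (2113 ± 98.3). In WT total RNA pgk1 stood below adh1 and tdh1, at 2625 ± 602 normalised counts per kilobase against 3265 ± 497 and 3430 ± 212, and pyk1 was last at 2314 ± 610. In the WT order tdh1, adh1, pgk1 and pyk1, neighbours overlapped between their libraries, while both tdh1 libraries lay above those of pgk1 and pyk1. Among the 515 genes with a length, pgk1 took rank 61 in slr1- and rank 100 in WT total RNA, and ranks 82 and 89 in slr1- and WT polysome RNA.

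In total RNA, slr1- and WT cells were compared for the abundance of each mRNA without Slr1p. Of the 8 members 6 rose in slr1-, none fell, and fba1 and pyk1 did not pass the edgeR quasi-likelihood test with Benjamini-Hochberg adjustment over the 527 genes. Over all listed genes 19.7% rose and 33.6% fell. The median log2 difference of the members was 0.51, against -0.19 over the 527 genes. Because the table was itself chosen by a rule that is not stated, these shares describe its genes and not the transcriptome. The 6 genes code for the enzymes from triose phosphate isomerisation to enolase and for alcohol dehydrogenase; fba1 acts before them and pyk1 after enolase. The calls of pgk1, adh1, tdh1 and gpm1 held under each alternative run, and those of tpi1 (0.21) and eno101 (0.38) were lost with library sizes alone, eno101 (0.42) also with only genes of at least 500 counts. Library sizes alone put the median of all listed genes at -0.37 and the members' median at 0.33, with 60 of 320 called genes higher. Scaling factors computed without ribosomal protein genes put these medians at 0.15 and 0.85, with 182 of 254 called genes higher and 7 members called, fba1 (0.35) among them.

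**Figure D1:**
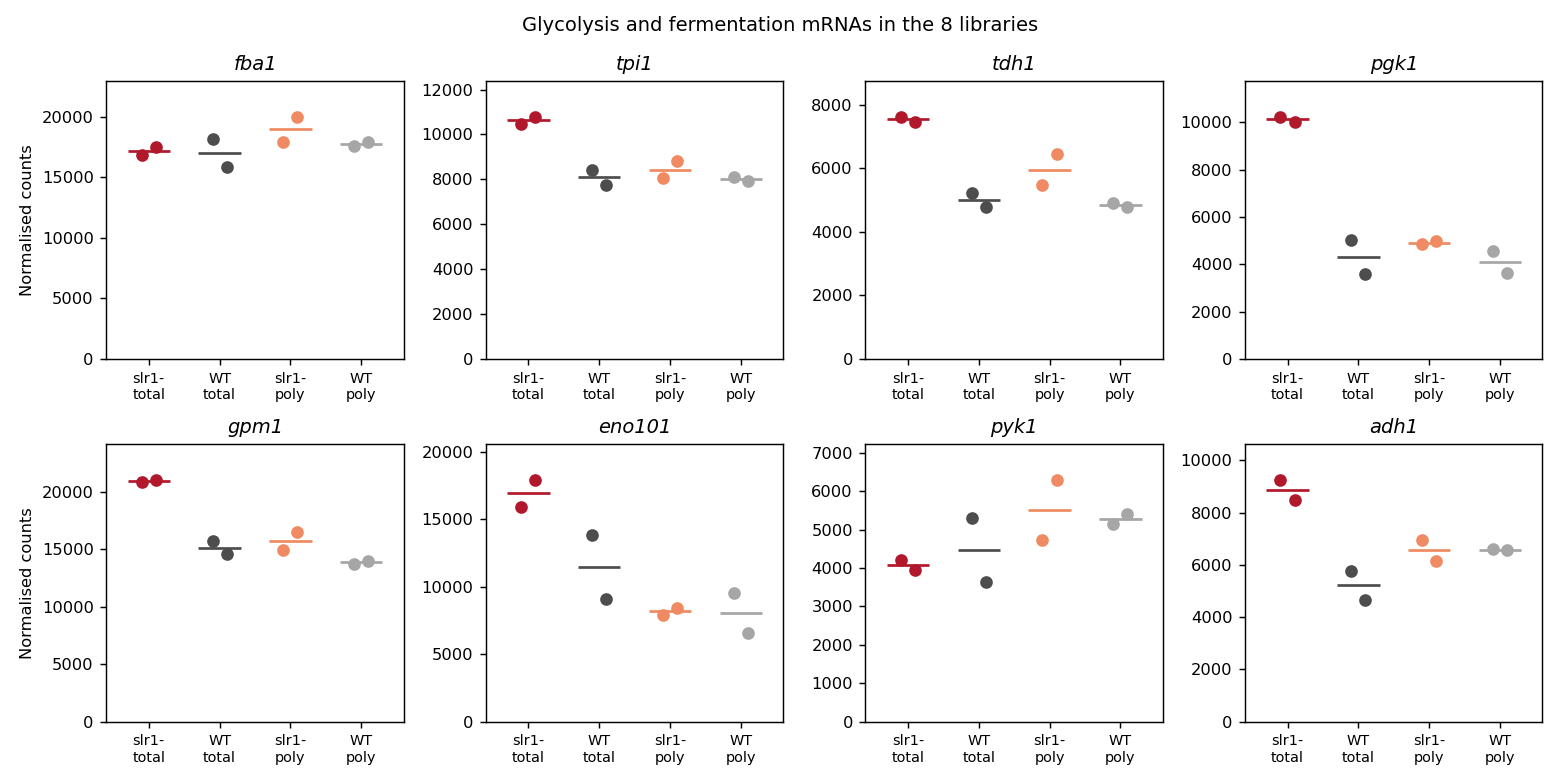
Normalised counts (vertical axes, from 0) of each of the 8 genes in slr1- total RNA, WT total RNA, slr1- polysome RNA and WT polysome RNA. Points are libraries and lines are group means; in pgk1 both slr1- total RNA libraries, at 10209 and 10031, lie above the other 6, which reach 5007 at most.

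The largest difference was in pgk1, which encodes phosphoglycerate kinase, the enzyme of the first ATP-yielding step (SPBC14F5.04c.1, II:4157821-4159461 on the minus strand). It had 10209 and 10031 normalised counts in the slr1- total RNA libraries, against 5007 and 3609 in the WT libraries. Both slr1- libraries were above both WT libraries by more than the gap between the WT replicates. The fold was 2.35 (log2 1.23 ± 0.16 SE, edgeR adjusted p = 0.000945), the second highest value of the 527 genes. Leaving out any 1 of the 8 libraries gave 1.02 to 1.49 on the log2 scale.

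The alcohol dehydrogenase gene adh1, whose enzyme makes ethanol from acetaldehyde (SPCC13B11.01.1, III:1591292-1592889 on the plus strand), came next. Its slr1- total RNA libraries had 9245 and 8478 normalised counts, against 5779 and 4657 in WT. The groups did not overlap, and the fold was 1.70 (log2 0.76 ± 0.12 SE, edgeR adjusted p = 0.00159).

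The glyceraldehyde-3-phosphate dehydrogenase gene tdh1 (SPBC32F12.11.1, II:2807595-2809051 on the plus strand) codes for the enzyme that reduces the NAD+ which fermentation renews. It had 7600 and 7462 normalised counts in slr1- and 5215 and 4779 in WT total RNA, again with no overlap. The fold was 1.51 (log2 0.59 ± 0.11 SE, edgeR adjusted p = 0.00248). Of the 1408 stretches of 50 bases in its transcript region, the read length, 234 (16.6%) also occur in gpd3, so reads may have been shared between these genes and the tdh1 values carry that limit. The other 7 members had 0 such stretches elsewhere in the genome.

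The enolase gene eno101 (SPBC1815.01.1, II:2201196-2202652 on the plus strand), whose enzyme removes water from 2-phosphoglycerate, varied most between WT replicates. It had 15903 and 17891 normalised counts in slr1-, against 13825 and 9102 in WT total RNA. The groups did not overlap, but the WT libraries lay further apart than the lower slr1- library lay from the higher WT one. The fold was 1.47 (log2 0.56 ± 0.20 SE, edgeR adjusted p = 0.0351). This call was lost without slr1- total RNA replicate 1 (0.64) or replicate 2 (0.47) and without WT total RNA replicate 2 (0.29).

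The gpm1 gene (SPAC26F1.06.1, I:5173864-5174654 on the minus strand), whose mutase converts 3-phosphoglycerate to 2-phosphoglycerate, had 20813 and 21019 normalised counts in slr1- and 15700 and 14593 in WT total RNA. Its fold of 1.38 (log2 0.47 ± 0.09 SE, edgeR adjusted p = 0.00357) was smaller than that of pgk1, and its replicates were closer together. The triosephosphate isomerase gene tpi1 (SPCC24B10.21.1, III:939913-940869 on the plus strand), whose enzyme interconverts the triose phosphates, had 10481 and 10764 in slr1- and 8414 and 7760 in WT total RNA. Its fold was 1.31 (log2 0.39 ± 0.10 SE, edgeR adjusted p = 0.00702). In both genes the strains did not overlap. Groups failed to overlap upward in 6 of the 8 members and in 28.8% of all listed genes.

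The aldolase gene fba1 (SPBC19C2.07.1, II:1688321-1689599 on the plus strand), whose enzyme splits the sugar bisphosphate, had 16805 and 17457 normalised counts in slr1- and 18138 and 15860 in WT total RNA. The slr1- libraries lay between the WT libraries (log2 0.01 ± 0.10 SE, edgeR adjusted p = 0.926). The pyruvate kinase gene pyk1 (SPAC4H3.10c.1, I:3844743-3846675 on the minus strand), which codes for the enzyme of the final step to pyruvate, had 4218 and 3949 in slr1- and 5306 and 3638 in WT total RNA. Here too both slr1- libraries lay between the WT ones (log2 -0.13 ± 0.17 SE, edgeR adjusted p = 0.533).

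Ratios of counts within a library do not depend on the scale between libraries. The pgk1 count was 0.608 and 0.575 of the fba1 count in slr1- total RNA, against 0.276 and 0.228 in WT total RNA. The adh1 count was 0.550 and 0.486 of that of fba1 in slr1- and 0.319 and 0.294 in WT total RNA. For pyk1 the ratios to fba1 were 0.251 and 0.226 in slr1- and 0.293 and 0.229 in WT total RNA, which overlap. The ratios of tpi1, tdh1, gpm1 and eno101 to fba1 were also higher in slr1- than in WT total RNA, with no overlap. Relative to fba1 the members thus changed unequally between the strains in total RNA. As fba1 was the member with the smallest difference there, these ratios restate the values above and are not further evidence. In polysome RNA the pgk1 ratio was 0.270 and 0.250 in slr1- and 0.261 and 0.203 in WT, and these values overlap. The polysome ratios of tpi1, eno101, pyk1 and adh1 also overlapped. Those of tdh1 did not, at 0.304 and 0.323 in slr1- and 0.280 and 0.267 in WT. Nor did those of gpm1, at 0.832 and 0.826 in slr1- and 0.780 and 0.782 in WT. The share of all listed genes whose ratio to fba1 fails to overlap was not computed for either fraction. On normalised counts, groups failed to overlap upward in 28.8% of all listed genes in total RNA and in 28.8% in polysome RNA. The polysome ratios too are given as a description and not as further evidence.

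**Figure D2:**
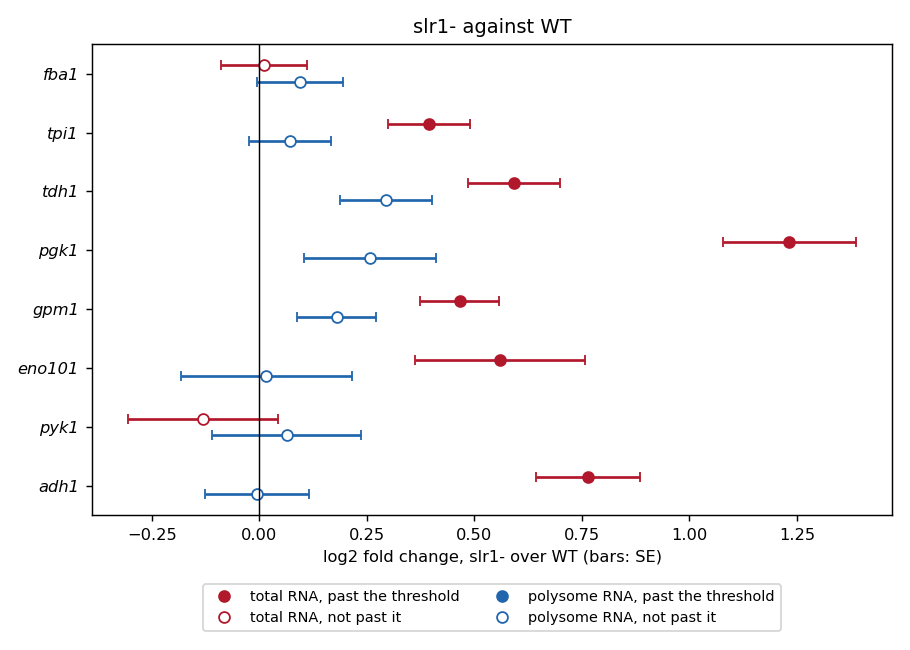
Log2 fold change of slr1- over WT (horizontal axis, bars are SE) for the 8 genes in pathway order, in total RNA and polysome RNA; filled points passed the adjusted threshold of 0.05. In total RNA 6 genes lie between 0.39 and 1.23 and passed, and in polysome RNA all 8 lie between -0.0045 and 0.29 and none passed.

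In polysome RNA, the comparison of slr1- with WT asked whether the mRNAs differ among those bound by ribosomes. Here 0 of the 8 members passed with edgeR, DESeq2 or limma-voom, and 1 (tdh1) had an unadjusted p under 0.05 with edgeR. Of all listed genes 0% passed with edgeR and with limma-voom, 6.62% of the 272 genes with an adjusted p passed with DESeq2, and 19% had an unadjusted p under 0.05 with edgeR. The median log2 difference of the members was 0.08, against -0.03 over the 527 genes.

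For pgk1 the polysome libraries held 4849 and 4983 normalised counts in slr1- and 4581 and 3642 in WT. The strains did not overlap, by a small margin (log2 0.26 ± 0.15 SE, edgeR adjusted p = 0.393). For adh1 they held 6966 and 6137 in slr1- and 6588 and 6555 in WT, so that the WT libraries lay between the slr1- libraries (log2 -0.0045 ± 0.12 SE). The tdh1 libraries had 5455 and 6438 in slr1- and 4915 and 4781 in WT polysome RNA, the highest log2 value of the 8 in this fraction (0.29 ± 0.11 SE, edgeR adjusted p = 0.172). The other 5 lay between 0.02 (eno101) and 0.18 (gpm1). For eno101 the libraries were 7895 and 8431 in slr1- and 9561 and 6584 in WT polysome RNA, with WT replicate 1 above replicate 2 as in total RNA. The gpm1 libraries had 14916 and 16463 in slr1- and 13696 and 14007 in WT, and the fba1 libraries 17937 and 19939 in slr1- and 17562 and 17922 in WT polysome RNA. In both genes the slr1- libraries were the higher ones, in fba1 by a margin of few counts. For tpi1 the values were 8058 and 8802 in slr1- and 8113 and 7925 in WT, and for pyk1 4739 and 6292 in slr1- and 5154 and 5406 in WT, with overlap in both genes. The groups did not overlap upward in fba1, tdh1, pgk1 and gpm1, that is 4 of 8 members, against 28.8% of all listed genes. A p that misses the threshold does not show that the levels are equal.

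**Figure D3:**
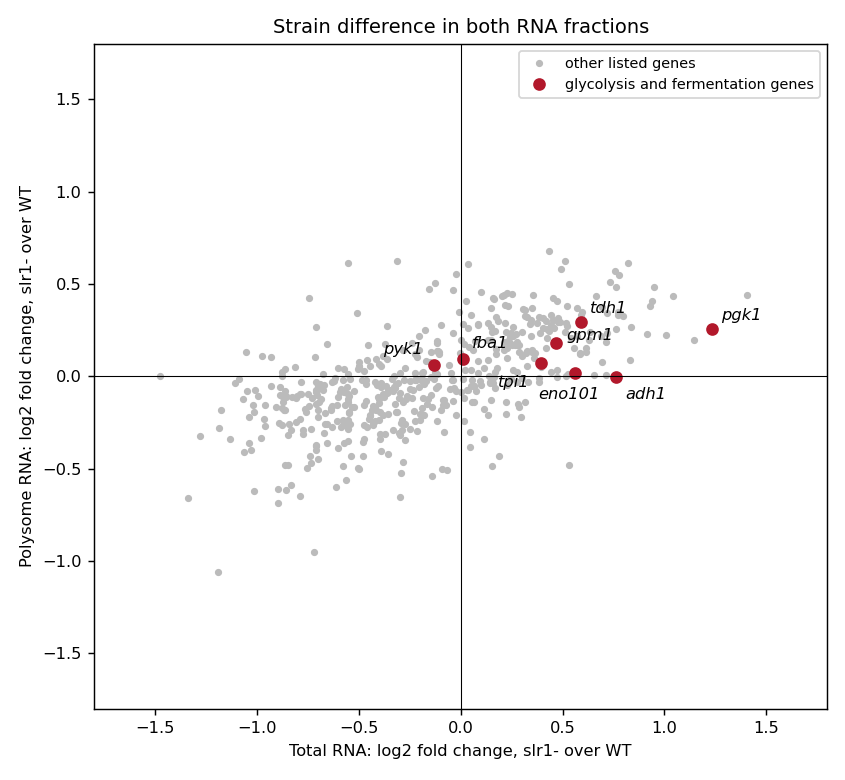
Log2 fold change of slr1- over WT in total RNA (horizontal axis) and in polysome RNA (vertical axis) for the 527 listed genes, with the 8 glycolysis and fermentation genes in red and named. The gene pgk1 lies far right at 1.23 and 0.26, adh1 and eno101 lie near 0 on the vertical axis at 0.76 and 0.56 on the horizontal one, and fba1 and pyk1 lie close to the origin.

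Whether the strain difference itself differs between the fractions was tested as an interaction, slr1- polysome over total RNA relative to WT polysome over total RNA. With edgeR 0 of the 8 members passed, against 0.38% of all listed genes, and 3 (pgk1, adh1 and tpi1) had an unadjusted p under 0.05, against 26.6% of all listed genes. The values of pgk1 (log2 -0.97 ± 0.22 SE) and adh1 (-0.77 ± 0.17 SE) both had an adjusted p of 0.0531. DESeq2 called both of these genes among 7.56% of the 476 genes with an adjusted p, and limma-voom called 0% of the genes and 0 members. In edgeR both were called with library sizes alone (pgk1 -0.89, adh1 -0.68), with only genes of at least 500 counts (-0.93 and -0.72) and without WT total RNA replicate 1 (-1.23 and -0.93). The pgk1 value also passed without WT polysome RNA replicate 2 (-1.24), and that of adh1 without slr1- total RNA replicate 2 (-0.83). Runs with replicate blocks, given in the last section, also called both genes. The other values were -0.54 ± 0.28 for eno101, -0.32 ± 0.13 for tpi1, -0.30 ± 0.15 for tdh1, -0.29 ± 0.13 for gpm1, 0.08 ± 0.14 for fba1 and 0.19 ± 0.25 for pyk1. The members' median was -0.31, against 0.15 over all listed genes. The authors' deposited table has ratios of raw counts for this comparison, by replicate number. They were 0.45 and 0.5 for pgk1 and 0.58 and 0.52 for adh1. They ran from 0.63 to 0.88 for eno101, tpi1, tdh1 and gpm1, and were 0.96 and 1.03 for fba1 and 1.01 and 1.09 for pyk1. These ratios are not scaled between libraries, so they are not on the scale of the values above. The false discovery rates of pgk1 and adh1 were 0.150 for both in the authors' translation test.

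Polysome RNA was then compared with total RNA within each strain. These comparisons share the total and polysome libraries with those above, so their values are given side by side and not as further evidence. In slr1- cells 6 members were lower in polysome than in total RNA and 1, pyk1, was higher, against 30.7% of listed genes lower and 34% higher. In WT cells 1 member, adh1, was higher and none lower, against 20.9% higher and 28.8% lower over all listed genes. The median log2 value of the members was -0.38 in slr1- and -0.03 in WT, against 0.06 and 0.01 over all listed genes. With library sizes alone the members' medians were 0.02 in slr1- and 0.29 in WT, and those of all listed genes 0.46 and 0.33, with 292 of 386 called genes higher in slr1- and 246 of 350 in WT. Under that scaling 2 members were called higher and 2 lower in slr1-, and 5 higher and 0 lower in WT. With factors computed without ribosomal protein genes the members' medians were -0.76 in slr1- and -0.13 in WT, and those of all listed genes -0.32 and -0.09, with 100 of 346 called genes higher in slr1- and 79 of 245 in WT. Here 0 members were higher and 6 lower in slr1-, and 0 higher and 1 lower in WT. The member median in slr1- thus lay below that of all listed genes under each of these scalings, but its own sign depended on the scaling.

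In slr1- cells pgk1 averaged 4916 ± 94.2 normalised counts in polysome RNA and 10120 ± 126 in total RNA, a log2 difference of -1.04 ± 0.15 SE (edgeR adjusted p = 0.000162). In WT cells it averaged 4112 ± 664 and 4308 ± 989, a difference of -0.07 ± 0.15 SE. The eno101 mRNA was lower in polysome RNA by a similar size in slr1- cells (8163 ± 379 against 16897 ± 1406 in total RNA; log2 -1.05 ± 0.20 SE, edgeR adjusted p = 0.000894). In WT cells its averages were 8073 ± 2105 and 11464 ± 3339 (-0.51 ± 0.20 SE, edgeR adjusted p = 0.0547). This WT value passed with DESeq2 (-0.50), with TMM factors computed without ribosomal protein genes (-0.61), and without WT total RNA replicate 2 (-0.78) or WT polysome RNA replicate 1 (-0.80). The WT value of eno101 also passed in the runs with replicate blocks. These 2 members stayed past the threshold in slr1- cells under each scaling and with any 1 library left out.

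For adh1 the sign differed between the strains, with 6551 ± 586 in polysome and 8861 ± 542 in total RNA of slr1- cells (log2 -0.44 ± 0.12 SE, edgeR adjusted p = 0.00855) and 6572 ± 23.0 and 5218 ± 794 in WT cells (0.33 ± 0.12 SE, edgeR adjusted p = 0.0416). The WT call was lost with TMM factors computed without ribosomal protein genes (0.23), with the compared groups only (0.36), and without slr1- total RNA replicate 1 or 2 (0.33 each), WT total RNA replicate 2 (0.19), WT polysome RNA replicate 1 (0.33) or replicate 2 (0.36). The calls of gpm1 (-0.41 ± 0.09 SE), tdh1 (-0.34 ± 0.11 SE) and tpi1 (-0.33 ± 0.10 SE) in slr1- cells depended on the scale, since with library sizes alone gpm1 was at -0.01 and adh1 at -0.03, and tdh1 (0.06) and tpi1 (0.07) turned positive. With only genes of at least 500 counts the calls of tpi1 (-0.17), tdh1 (-0.18) and adh1 (-0.27) were lost. The tdh1 call was also lost without slr1- total RNA replicate 1 (-0.33) or replicate 2 (-0.35), and that of adh1 without slr1- total RNA replicate 1 (-0.37) or slr1- polysome RNA replicate 2 (-0.37). The fba1 mRNA, at 18938 ± 1416 in polysome and 17131 ± 461 in total RNA of slr1- cells, did not pass (0.14 ± 0.10 SE). It was called higher with library sizes alone (0.55) and with only genes of at least 500 counts (0.31), and stood at -0.24 with factors computed without ribosomal protein genes. For pyk1 the averages were 5516 ± 1098 and 4084 ± 190 in slr1- cells (0.43 ± 0.17 SE, edgeR adjusted p = 0.0476), and this call was lost with DESeq2 (0.36), limma-voom (0.42) and without slr1- polysome RNA replicate 2 (0.20), among others.

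**Figure D4:**
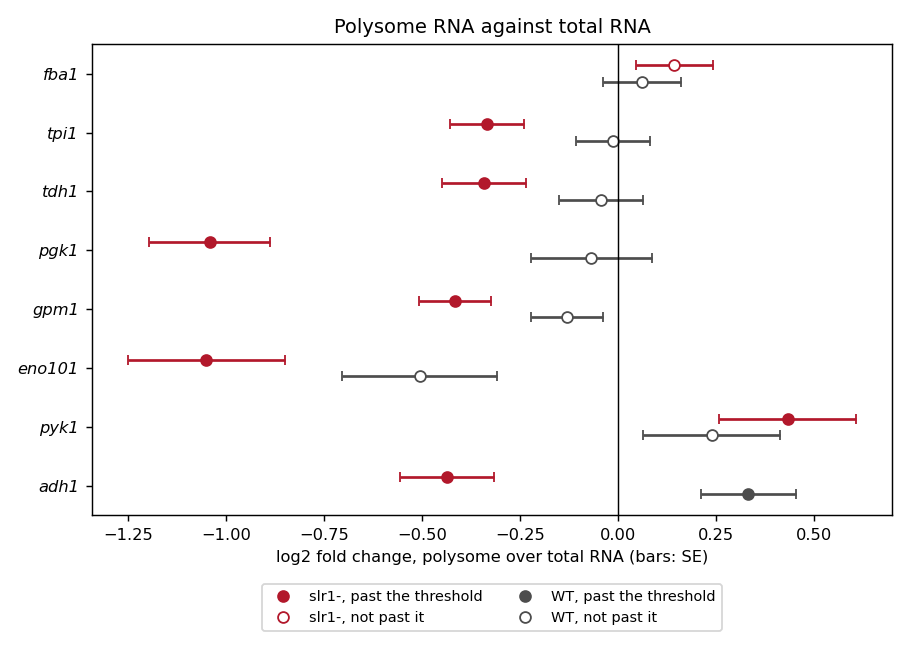
Log2 fold change of polysome RNA over total RNA (horizontal axis, bars are SE) for the 8 genes in slr1- and WT cells; filled points passed the adjusted threshold of 0.05. In slr1- cells pgk1 and eno101 lie at -1.04 and -1.05, whereas in WT cells the values run from -0.51 (eno101) to 0.33 (adh1).

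The rest of central carbon metabolism was taken from 4 lists of 47 symbols, of which 15 are in the table. In slr1- total RNA 2 of the 15 rose, 4 fell and 9 did not pass, with a median log2 difference of -0.02, against 19.7% higher and 33.6% lower over all listed genes. Among the 5 other genes of glycolysis and fermentation, the pyruvate decarboxylase gene pdc101, whose enzyme makes the acetaldehyde that adh1's product reduces, rose (0.28 ± 0.09 SE, edgeR adjusted p = 0.0303). The upper pathway did not pass, with hexokinase genes hxk1 at -0.03 ± 0.16 and hxk2 at 0.14 ± 0.10, the phosphoglucose isomerase gene pgi1 at 0.07 ± 0.17 and the phosphofructokinase gene pfk1 at 0.05 ± 0.15. Of the 6 genes of the pyruvate and glycerol branches 3 fell: dld1 (-0.66 ± 0.19) and lat1 (-0.55 ± 0.17), for subunits of pyruvate dehydrogenase, and the aldehyde dehydrogenase gene atd1 (-0.47 ± 0.11). The pyruvate dehydrogenase subunit gene pda1 (-0.02 ± 0.14), the pyruvate carboxylase gene pyr1 (-0.65 ± 0.26) and the glycerol-3-phosphate dehydrogenase gene gpd1 (0.04 ± 0.17) did not pass. Of 4 genes of the pentose phosphate pathway the transketolase gene tkt1 rose (0.32 ± 0.12) and the epimerase gene rpe1 fell (-0.41 ± 0.15), while tal1 (-0.12 ± 0.11) and gnd1 (0.17 ± 0.14) did not pass. In polysome RNA 0 of the 15 passed with edgeR. Between polysome and total RNA, 4 of the 15 were higher and 3 lower in slr1- cells, and 2 were higher and 2 lower in WT cells. Over all listed genes 34% were higher and 30.7% lower in slr1- cells, and 20.9% higher and 28.8% lower in WT cells. The calls of pdc101 (0.10) and tkt1 (0.14) were lost with library sizes alone, and those of dld1 (-0.33), lat1 (-0.22), atd1 (-0.14) and rpe1 (-0.08) with TMM factors computed without ribosomal protein genes. That of rpe1 was also lost with DESeq2 (-0.34), with DESeq2 size factors in edgeR (-0.34) and with TMM factors computed without the members (-0.28). With the compared groups only, the calls of tkt1 (0.45), lat1 (-0.43), atd1 (-0.35) and rpe1 (-0.29) were lost. With only genes of at least 500 counts, those of pdc101 (0.14) and tkt1 (0.18) were lost. None of the 6 calls held without slr1- total RNA replicate 1, where the values were 0.31 for pdc101, 0.30 for tkt1, -0.45 for dld1, -0.38 for lat1, -0.41 for atd1 and -0.27 for rpe1. Calls over all listed genes also fell in number without that library. Of the 6 calls, all but that of atd1 were also lost without another single library. Other list genes gained a call in total RNA under another scaling. With TMM factors computed without ribosomal protein genes, hxk2 (0.48), gnd1 (0.51) and pda1 (0.31) were called higher. With library sizes alone, pyr1 (-0.83) and tal1 (-0.30) were called lower. The values of the upper pathway thus depended on the scaling. Of 10 genes of glucose uptake and signalling 0 are in the table.

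Of the 8 members 6 had similar profiles over the 8 libraries. The Pearson correlation of each with the mean of the other members, on centred log2 normalised counts, was 0.97 for tpi1, 0.96 for pgk1, 0.93 for gpm1 and tdh1, 0.79 for adh1 and 0.72 for eno101, against 0.05 for fba1 and -0.30 for pyk1. The 5 genes outside the members with the profiles most like the members' mean were tpx1 (0.96), a thioredoxin peroxidase gene, the ribosomal protein genes rps1001 (0.96) and rpl2101 (0.95), ppi1 (0.95), a cyclophilin gene, and pmp20 (0.94), which the reference names a thioredoxin-related chaperone. These correlations are over 8 libraries in 4 groups that share their scaling factors, and are given as a description. How many other listed genes correlate as strongly was not counted, so the likeness is not shown to be particular to the members.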

How the data were processed

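The deposited table holds a count per gene and library for 527 genes, and per the labels the RNA was depleted of ribosomal RNA, made into stranded libraries and read as single 50 bp reads. The submitters' processing notes name RSEM and Bowtie; versions, options, genome build, annotation and the rule that chose the genes are not stated in those notes, the labels or the table. Per the file headers, the table also has the authors' log2 fold changes, p-values, a direction score of 1 or -1, a change type and ratios of counts, which entered no test. The change type is both for 250 genes and translational_only for 277. It is translational_only for fba1 and pyk1 and both for the other members. How these types relate to the choice of the listed genes is not stated.

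Identifiers were matched without regard to case to RefSeq ASM294v3 (515 of 527). The counts of all 8 libraries entered 1 edgeR model (version 4.0.16, R 4.3.3) with TMM scaling and a mean for each group, which leaves 4 residual degrees of freedom; the biological coefficient of variation was 0.113. Quasi-likelihood tests were two-sided, adjusted by Benjamini-Hochberg over 527 genes, threshold 0.05. SE is the absolute log2 value divided by the root of F. No gene was filtered, since the lowest mean was 161 counts. Alternatives were DESeq2 1.42.0, limma-voom 3.58.1, other scaling factors, genes of at least 500 counts, compared groups only, replicate blocks and leaving out each library. How the replicates were grown is not described, so p-values cover the spread among these libraries only. All 8 members and every list gene in the table are named, and the 5 most correlated genes. Members and lists were chosen with earlier results of these data known.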

Additional observations from a re-analysis of the deposited data

How the results depend on the processing

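The rises of pgk1, adh1, tdh1 and gpm1 in total RNA held under each alternative, and those of tpi1 and eno101 did not hold under each; the cause of calls lost or gained was not tested. Without any 1 library, 5 to 6 members were called in total RNA, 0 to 0 in polysome RNA, 0 to 2 in the strain difference of polysome over total RNA, 4 to 7 in slr1- polysome over total RNA and 0 to 2 in WT; over all genes the ranges were 127 to 288, 0 to 2, 0 to 77, 277 to 351 and 163 to 283 calls. With only the 312 genes of at least 500 counts, 134 genes were called in total RNA and 13 with 2 members in the strain difference. In slr1- polysome over total RNA 197 were called (5 members, 2 higher and 3 lower), and in WT 160. Fewer genes were tested, and the TMM factors were computed again from these genes alone. Their median log2 difference in total RNA was -0.05, against -0.19 over the 527 genes. DESeq2 called 18 genes in polysome RNA and 36 with 2 members in the strain difference. In WT polysome over total RNA it called 249 genes with 2 members. For the strain difference, where edgeR called 2 genes and 0 members, limma-voom called 0 genes, library sizes alone 31 with 2 members, TMM without ribosomal protein genes 0 and TMM without the members 1. Library sizes alone called 386 genes with 4 members in slr1- polysome over total RNA. Of these members 2 were higher and 2 lower, against 1 higher and 6 lower with TMM. In WT polysome over total RNA library sizes alone called 350 genes with 5 members (5 higher, 0 lower). The compared groups only called 269 genes with 0 members in WT. The replicate block (1 term per replicate number) called 9 genes with 2 members (pgk1 and adh1) in the strain difference. In WT polysome over total RNA it called 246 genes with 2 members (adh1 higher, eno101 lower). A replicate block per strain called 46 genes with 3 members (pgk1, adh1 and eno101) in the strain difference. In WT polysome over total RNA it called 277 genes with 2 members. This block per strain was not run for the strain comparisons, where it coincides with strain. Deviations of same-numbered libraries correlated between -0.29 and 0.29 over the 6 pairs of groups. Between total and polysome RNA of the same strain the correlation was 0.29 in WT and 0.07 in slr1-. The value of -0.29 was between WT total RNA and slr1- polysome RNA. Whether same-numbered libraries share a culture is not described and was not tested, so the main fit did not take the numbers to pair samples. A replicate block with crossed numbers, chosen after seeing the data, called 303 genes and 6 members in total RNA. With library sizes alone, signs turned for slr1- over WT total RNA at -0.17 (fba1), -0.037 (hxk2), -0.11 (pgi1), -0.13 (pfk1), -0.14 (gpd1), -0.0079 (gnd1), and for slr1- over WT polysome RNA at -0.0012 (fba1), -0.023 (tpi1), -0.079 (eno101), -0.034 (pyk1), and for polysome over total RNA in slr1- at 0.069 (tpi1), 0.061 (tdh1), and for polysome over total RNA in WT at 0.30 (tpi1), 0.27 (tdh1), 0.25 (pgk1), 0.19 (gpm1). With only genes of at least 500 counts, signs turned for slr1- over WT total RNA at -0.13 (fba1), -0.069 (pgi1), -0.096 (pfk1), -0.10 (gpd1), and for slr1- over WT polysome RNA at -0.0034 (fba1), -0.026 (tpi1), -0.083 (eno101), -0.035 (pyk1), and for polysome over total RNA in WT at 0.11 (tpi1), 0.074 (tdh1), 0.054 (pgk1). With TMM factors without ribosomal protein genes, signs turned for slr1- over WT total RNA at 0.21 (pyk1), 0.30 (hxk1), 0.31 (pda1), 0.22 (tal1), and for slr1- over WT polysome RNA at 0.056 (adh1), and for the strain difference in polysome over total RNA at -0.19 (fba1), -0.087 (pyk1), and for polysome over total RNA in slr1- at -0.24 (fba1), and for polysome over total RNA in WT at -0.043 (fba1). With TMM factors without the 8 members, signs turned for slr1- over WT total RNA at 0.0035 (pyk1), 0.10 (hxk1), 0.11 (pda1), 0.020 (tal1), and for slr1- over WT polysome RNA at 0.021 (adh1), and for the strain difference in polysome over total RNA at -0.026 (fba1), and for polysome over total RNA in WT at 0.12 (tpi1), 0.090 (tdh1), 0.063 (pgk1), 0.0050 (gpm1). With the compared groups only, signs turned for slr1- over WT total RNA at 0.0012 (pyk1), 0.090 (hxk1), 0.10 (pda1), 0.0088 (tal1), and for polysome over total RNA in WT at 0.010 (tpi1). With DESeq2, signs turned for slr1- over WT total RNA at 0.045 (hxk1), 0.057 (pda1). With DESeq2 size factors in edgeR, signs turned for slr1- over WT total RNA at 0.045 (hxk1), 0.057 (pda1). For slr1- over WT total RNA, leaving out 1 library turned the sign of fba1 (-0.082 to 0.11), pyk1 (-0.38 to 0.17), hxk1 (-0.21 to 0.13), pgi1 (-0.14 to 0.32), pfk1 (-0.050 to 0.14), pda1 (-0.091 to 0.071), gpd1 (-0.22 to 0.34), gnd1 (-0.0096 to 0.38). For slr1- over WT polysome RNA, leaving out 1 library turned the sign of eno101 (-0.24 to 0.31), pyk1 (-0.16 to 0.23), adh1 (-0.13 to 0.083). For the strain difference in polysome over total RNA, leaving out 1 library turned the sign of fba1 (-0.035 to 0.18), pyk1 (-0.10 to 0.44). For polysome over total RNA in WT, leaving out 1 library turned the sign of fba1 (-0.032 to 0.16), tpi1 (-0.069 to 0.047), tdh1 (-0.11 to 0.021), pgk1 (-0.28 to 0.19), pyk1 (-0.0072 to 0.54).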
